A study of Mus musculus with 20 samples.

Results

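The 9 genes C1qa, C1qb, C1qc, Fcgr1, Fcgr2b, Fcgr3, Fcgr4, Fcer1g and Tyrobp were described, by symbol, out of the 55401 genes counted in a mouse study presented under food insecurity and adiposity. PolyA RNA was sequenced from eWAT, the white fat of the epididymal pad. The 20 libraries fell into 10 of random food restriction, a regime that joined intermittent fasting to 5% less calories, and 10 of a control diet. Strain, age and sex were not given in the sources used here. The labels also mark each library Yes or No for contamination with spermatocytes, germ cells of the neighbouring testis. Yes was given to 3 restricted and 7 control libraries, and No to 7 restricted and 3 control libraries. Because the label and the diet are unequally spread, both were terms of each fit.

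The C1q genes encode the A, B and C chains of C1q, the molecule that recognises bound antibody, dying cells and other surfaces and starts the classical complement pathway. In tissues C1q is made mainly by macrophages. The Fc gamma receptors bind IgG on immune cells, myeloid cells among them. Fcgr1, Fcgr3 and Fcgr4 encode activating receptors, which signal through the ITAM motif of the common gamma chain encoded by Fcer1g. Fcgr2b encodes the inhibitory receptor, which carries an ITIM motif of its own. Tyrobp encodes DAP12, another small adaptor with an ITAM, which serves receptors such as Trem2 on macrophages and several receptors of natural killer cells. In adipose tissue all 9 are commonly read as transcripts of resident and recruited macrophages. Some of the 9 are also transcribed by other immune cells, such as mast cells, dendritic cells, neutrophils and natural killer cells.

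Libraries held 14306528 to 44061508 counts. The summed level of 7 adipocyte markers was 36080 to 49340 CPM in restricted and 33000 to 44670 CPM in control libraries, where CPM are the counts of a gene scaled to the depth of its library. By diet 2 of the 7 were called higher in restricted libraries, Fabp4 (log2 fold change 0.31) and Lep (0.50), and none lower. Skeletal muscle markers stood apart in 6 libraries, Restricted 1 and Control 1 to 5, and their sum ranged over 34.0 to 3766 CPM in restricted and 21.4 to 1983 CPM in control libraries. Germ cell markers summed to 3.10 to 90.3 CPM in restricted and 2.13 to 33.3 CPM in control libraries. Markers of the epididymis epithelium, none of them tested, summed to at most 1.38 CPM in restricted and 252.6 CPM in control libraries. Their medians were 0.186 and 0.225 CPM, and the highest sum in a library marked No was 57.0 CPM. None of 6 tested muscle markers was called by diet, though all 6 log2 fold changes were below 0, with a median of -1.55. Most libraries with raised muscle transcripts were control libraries, so the missing calls do not show that muscle was balanced between the diets. Sycp3, the only tested germ cell marker, was called higher in restricted libraries (log2 fold change 1.37, adjusted p = 0.000912, edgeR). The median germ cell sum went the other way, at 4.52 CPM in restricted and 8.52 CPM in control libraries. The RNA integrity number was 7.17 ± 0.399 in restricted (SD, n = 8) and 7.41 ± 0.267 in control libraries (SD, n = 9). The labels do not say that the libraries of a diet came from separate mice, so p-values measure the spread between libraries, which may be technical. In these bulk samples, fewer cells of a type and less RNA per cell cannot be told apart.

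The C1q genes lie side by side on chromosome 4 on the minus strand. By GRCm38 gene spans, exons and introns included, C1qb is at chr4:136880129-136886187, C1qc at chr4:136889804-136893065 and C1qa at chr4:136895917-136898803, with 3616 bases between C1qb and C1qc and 2851 between C1qc and C1qa. Fcgr2b (chr1:170958617-170976547, minus strand), Fcgr4 (chr1:171018920-171029761, plus strand), Fcgr3 (chr1:171051174-171064935, minus strand) and Fcer1g (chr1:171229572-171234365, minus strand) form a stretch of chromosome 1. Fcgr1 (chr3:96282909-96293933, minus strand) and Tyrobp (chr7:30413760-30417582, plus strand) lie apart from them.

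RefSeq promoters of GRCm38.p6, 250 bases before to 50 after the annotated start, were held for 7 of the 9 genes. These promoters were searched on both strands for the letters GAGGAA, the core bound by PU.1, a myeloid transcription factor encoded by Spi1. The match was found in 5 of the 7 (C1qb, C1qc, Fcgr1, Fcgr3 and Fcgr4), and 28.3% of the 32851 promoters of the same length hold it. That share is per promoter, while Fcgr3 was searched from alternative annotated starts. The search also covered an interferon response element, read as GAAA, any 2 bases and GAAA again, which 3.44% of all promoters hold and of the members that of Fcgr4 alone. The matches are overlaps of letters and show no binding. The C1qb and C1qc promoters are shown for the neighbouring C1q genes, that of Fcgr1 for the high-affinity receptor, and that of Fcgr4 for its second kind of match. All read 5′ to 3′ on the strand of the gene, with the matches in capitals (TTCCTC is GAGGAA on the other strand), and the start site is position 1.
C1qb, chr4:136886151-136886450, minus strand: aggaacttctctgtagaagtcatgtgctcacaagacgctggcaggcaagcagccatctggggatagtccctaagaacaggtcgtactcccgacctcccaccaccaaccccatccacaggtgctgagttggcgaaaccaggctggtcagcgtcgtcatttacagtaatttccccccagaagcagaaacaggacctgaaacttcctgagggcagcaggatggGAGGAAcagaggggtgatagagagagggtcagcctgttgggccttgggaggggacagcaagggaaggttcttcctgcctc
C1qc, chr4:136892865-136893164, minus strand: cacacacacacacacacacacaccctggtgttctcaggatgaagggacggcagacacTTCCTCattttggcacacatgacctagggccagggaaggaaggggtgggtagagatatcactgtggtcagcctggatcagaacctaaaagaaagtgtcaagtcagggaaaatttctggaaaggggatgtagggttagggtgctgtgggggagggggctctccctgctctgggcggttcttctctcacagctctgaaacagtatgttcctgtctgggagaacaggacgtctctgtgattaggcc
Fcgr1, chr3:96293920-96294219, minus strand: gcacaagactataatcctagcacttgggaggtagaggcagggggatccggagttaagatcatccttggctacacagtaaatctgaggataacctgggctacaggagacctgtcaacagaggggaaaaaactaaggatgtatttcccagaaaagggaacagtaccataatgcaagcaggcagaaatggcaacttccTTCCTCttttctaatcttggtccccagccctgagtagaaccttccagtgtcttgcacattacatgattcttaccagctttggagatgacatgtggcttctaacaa
Fcgr4, chr1:171018676-171018975, plus strand: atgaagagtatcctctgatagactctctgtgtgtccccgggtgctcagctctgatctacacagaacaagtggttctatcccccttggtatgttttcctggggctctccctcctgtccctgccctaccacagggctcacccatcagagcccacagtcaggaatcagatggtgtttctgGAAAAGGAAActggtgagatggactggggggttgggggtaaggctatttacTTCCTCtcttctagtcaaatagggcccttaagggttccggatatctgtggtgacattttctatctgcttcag
In C1qb the PU.1-type match begins at position -30. In C1qc the PU.1-type match begins at -193. In Fcgr1 the PU.1-type match begins at -55. In Fcgr4 the PU.1-type match begins at -22 and the interferon element at -73.

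Levels were compared between genes as CPM per kilobase of the length column of the deposited table. The C1q chains were the most abundant members. Over the 20 libraries C1qa had a median of 150.3 CPM per kilobase, C1qb 145.3 and C1qc 70.5. Tyrobp followed at 65.9 and Fcer1g at 30.0 CPM per kilobase. The receptors were lower, with Fcgr3 at 19.2, Fcgr2b at 6.89, Fcgr1 at 1.57 and Fcgr4 at 0.847 CPM per kilobase. C1qa was above C1qb in 13 of 20 libraries and C1qc above Tyrobp in 16 of 20, so these neighbours in the order were not separated. Each other neighbour pair kept its order in all 20 libraries. The order depends on the length used, which is the same in every library: 5790 bases for Fcgr2b against 1736 for Fcgr3, and 1931 for C1qc against 1040 for C1qa. By mean CPM Fcgr2b (39.1) was above Fcgr3 (34.5), both were above Fcer1g (26.9), and C1qc (142) was near C1qa (160). By mean CPM, which is not per length, the C1q genes were above 92.9% to 94.1% of the 15986 tested genes, Fcgr1 above 28.8% and Fcgr4 above 11.7%. Fcgr4 had only 10 to 41 counts in a restricted and 16 to 53 counts in a control library, so its values carry a large counting error.

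By diet, 8 of the 9 genes were lower in restricted than in control libraries by edgeR's quasi-likelihood test at an adjusted p of 0.05, and none was higher. The exception in the test was Fcgr4, whose fitted difference was also negative. All 9 passed the filter on low counts. Of all tested genes 7.29% were called lower and 6.31% higher. The median log2 fold change of the 9 members was -0.45, against 0.01 over all tested genes, of which 48.1% were below 0. The summed level of the 9 genes was 443 to 669.8 CPM in restricted libraries (mean 543 ± 62.9, SD, n = 10) and 586 to 784 CPM in control libraries (687 ± 69.8, SD, n = 10).

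**Figure D1:**
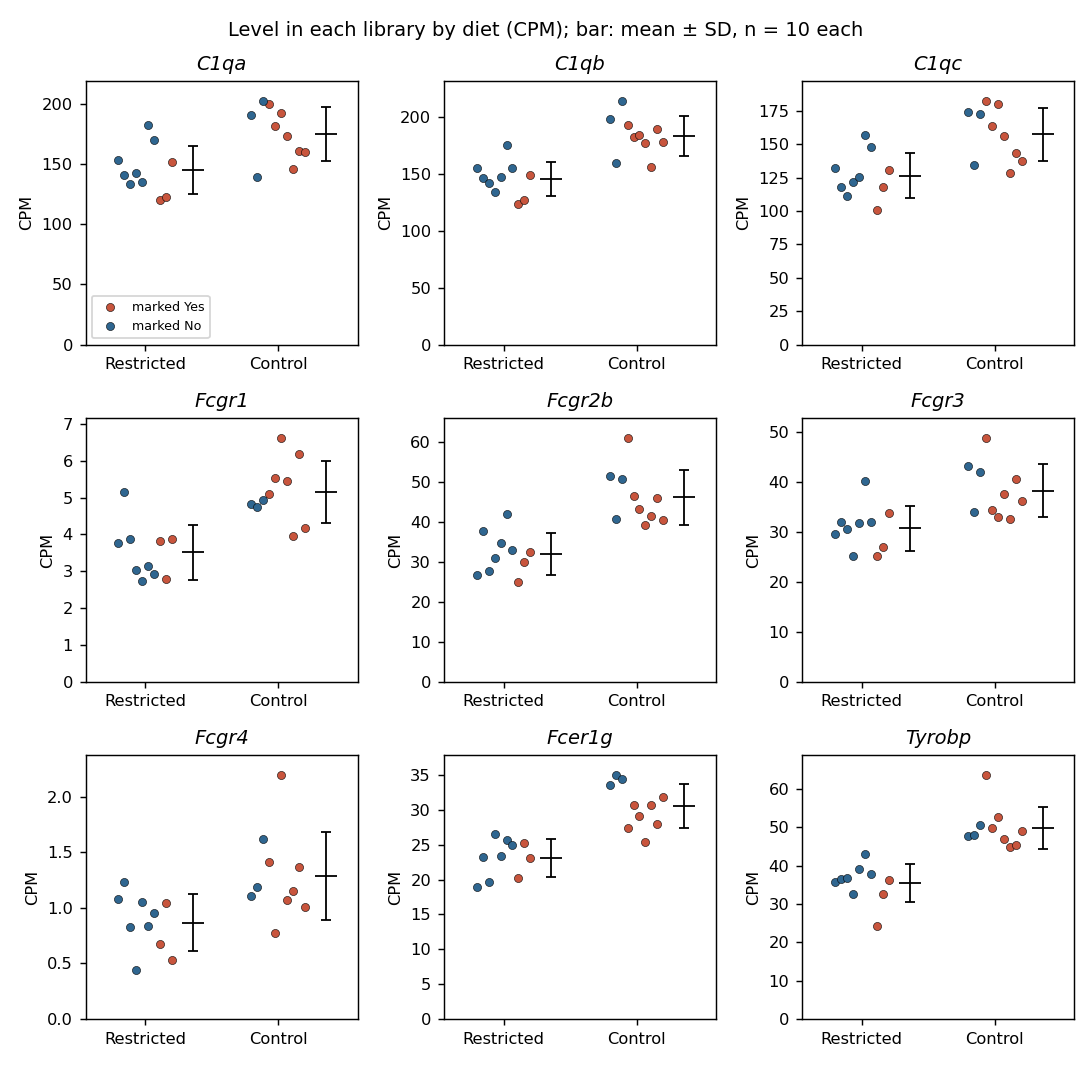
Level of each of the 9 genes in CPM in every library, restricted left of control, coloured by the contamination label, with the mean and SD over 10 libraries beside each group; each vertical axis starts at 0. Tyrobp is the member whose restricted libraries, at 24.1 to 43.0 CPM, all lie below its control libraries, at 44.9 to 63.7 CPM.

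The plot of levels by library shows all 3 C1q chains lower in restricted libraries, with log2 fold changes of -0.32 to -0.39. C1qa ranged from 120.1 to 183 CPM in restricted libraries with a median of 142, and from 139 to 203 CPM in control libraries with a median of 178. Its groups overlapped, with 6 restricted libraries at or above the lowest control library and 9 of 10 under the control median. It averaged 145 ± 19.7 CPM in restricted and 175 ± 22.5 CPM in control libraries, and fell by 19.6% (log2 fold change -0.32 ± 0.09, SE, adjusted p = 0.0203, edgeR). C1qb was at 124, 147 and 176 CPM (lowest, median and highest) in restricted libraries and at 157, 184 and 215 CPM in control libraries. A lone restricted library, Restricted 8, reached into the control range. C1qb averaged 146 ± 15.2 CPM in restricted and 184 ± 17.4 CPM in control libraries, a log2 fold change of -0.39 ± 0.07 (SE, adjusted p = 0.000542, edgeR). C1qc was at 100.5, 124 and 157 CPM in restricted libraries and at 129, 159.8 and 183 CPM in control libraries. All 10 restricted libraries were under its control median, and 4 were at or above the lowest control library. C1qc averaged 126 ± 16.7 CPM in restricted and 157 ± 20.1 CPM in control libraries, a log2 fold change of -0.36 ± 0.09 (SE, adjusted p = 0.00881, edgeR). C1qa alone of the 8 called genes lost its call when a library was left out: without Restricted 1 or without Control 7 its adjusted p was up to 0.066. Its call was also lost with limma-voom (log2 fold change -0.24, adjusted p = 0.0712).

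Of the 4 receptors, the inhibitory Fcgr2b and the activating Fcgr3 and Fcgr1 fell, and Fcgr4 did not pass the test. Fcgr2b was at 24.9, 31.7 and 42.1 CPM (lowest, median and highest) in restricted libraries and at 39.2, 44.7 and 61.1 CPM in control libraries. Restricted 8 was the only restricted library above the lowest control library. Fcgr2b averaged 32.0 ± 5.23 CPM in restricted and 46.1 ± 6.78 CPM in control libraries, and fell by 33.1% (log2 fold change -0.58 ± 0.10, SE, adjusted p = 0.000601, edgeR). Fcgr3, a low-affinity activating IgG receptor, was at 25.2, 31.2 and 40.2 CPM in restricted libraries and at 32.7, 36.9 and 48.9 CPM in control libraries. Restricted 3 and Restricted 8 reached into the control range. Fcgr3 averaged 30.8 ± 4.46 CPM in restricted and 38.3 ± 5.32 CPM in control libraries, a log2 fold change of -0.36 ± 0.09 (SE, adjusted p = 0.0125, edgeR). Fcgr1, the high-affinity IgG receptor, was at 2.72, 3.46 and 5.16 CPM in restricted libraries and at 3.96, 5.02 and 6.63 CPM in control libraries. The restricted library above the lowest control value was Restricted 4. Fcgr1 averaged 3.52 ± 0.744 CPM in restricted and 5.16 ± 0.833 CPM in control libraries, a log2 fold change of -0.53 ± 0.14 (SE, adjusted p = 0.0142, edgeR). Fcgr4, the mouse activating receptor of intermediate affinity for IgG2 subclasses, was at 0.440, 0.898 and 1.23 CPM in restricted libraries and at 0.775, 1.17 and 2.20 CPM in control libraries. Its groups overlapped widely. Fcgr4 averaged 0.867 ± 0.255 CPM in restricted and 1.29 ± 0.396 CPM in control libraries, and its log2 fold change of -0.64 ± 0.23 (SE) did not pass the test (adjusted p = 0.0631, edgeR), with a 95% interval of -1.11 to -0.16 before adjustment. Without Control 10 its adjusted p was 0.0496.

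Both adaptors fell. Tyrobp was at 24.1, 36.4 and 43.0 CPM (lowest, median and highest) in restricted libraries and at 44.9, 48.5 and 63.7 CPM in control libraries. All restricted libraries were below all control libraries, as they were for 0.588% of the tested genes. Tyrobp averaged 35.5 ± 5.02 CPM in restricted and 49.9 ± 5.41 CPM in control libraries, and fell by 31.2% (log2 fold change -0.54 ± 0.09, SE, adjusted p = 0.000347, edgeR). Fcer1g was at 18.9, 23.3 and 26.6 CPM in restricted libraries and at 25.4, 30.7 and 35.1 CPM in control libraries. The overlap came from Control 4, the lowest control library, which was at or under 2 restricted libraries. Fcer1g averaged 23.1 ± 2.67 CPM in restricted and 30.6 ± 3.18 CPM in control libraries, a log2 fold change of -0.45 ± 0.07 (SE, adjusted p = 0.000321, edgeR). Tyrobp kept its call under all 15 alternatives to the fit and without each library in turn, and Fcer1g under 14 of the 15, the exception being libraries marked Yes alone.

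Counts of called members were smaller in subsets. With libraries marked No alone, 2 of the 9 genes were called lower, Fcer1g and Tyrobp, beside 1.63% of the genes tested there. With libraries marked Yes alone, 3 were called lower, C1qb, Fcgr2b and Tyrobp, beside 0.996%. Without the 6 libraries with raised muscle transcripts, 4 were called lower, C1qb, Fcgr2b, Fcer1g and Tyrobp, beside 3.19%. With the RNA integrity number as a term, in the 17 libraries that have it, 2 were called lower, Fcer1g and Tyrobp, beside 1.17%. The same 17 libraries without that term gave 6, beside 4.77%. The 9 fold changes stayed negative in each of these fits. With the integrity term all but that of Fcgr4 were smaller in size than in the same 17 libraries without it. C1qa was then at -0.18 (adjusted p = 0.419, edgeR) and Fcgr3 at -0.23 (adjusted p = 0.318, edgeR). Without the term they were at -0.28 (adjusted p = 0.0886, edgeR) and -0.34 (adjusted p = 0.0532, edgeR). Tyrobp was at -0.52 with the term and -0.56 without it, and Fcer1g at -0.40 and -0.41. Within libraries marked No, Fcer1g and Tyrobp did not overlap between the diets, beside 4.73% of tested genes lower without overlap. Within libraries marked Yes, C1qb, Fcgr1, Fcgr2b, Fcer1g and Tyrobp did not overlap, beside 5.04%.

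The contamination label was set against the same genes. By label, 0 of the 9 genes were called in the edgeR fit, 0 had an unadjusted p under 0.05, and 5.3% of tested genes were called in either direction, 5.04% as higher and 0.269% as lower in Yes. The log2 fold changes of Yes over No ranged from -0.15 for Fcgr4 to 0.06 for Fcgr1. C1qb had the narrowest interval, -0.27 to 0.01 (95%), and Fcgr4 the widest, -0.62 to 0.33. The germ cell marker Sycp3 was not called by label (0.03, adjusted p = 0.982, edgeR), while the muscle marker Ttn was higher in Yes (5.53, adjusted p = 0.0346, edgeR). The median germ cell sum was 9.025 CPM in Yes and 4.52 CPM in No libraries. The median muscle sum was 467 CPM in Yes and 53.9 CPM in No libraries, so the label also went with muscle transcripts. The difference between the diets was not shown to depend on the label: the interaction was called for 0 of the 9 members and for 0 of all tested genes in edgeR (0%), with 871 genes at an unadjusted p under 0.05. DESeq2 called 1 gene and limma-voom 0 for the interaction. Among the members the smallest unadjusted p was 0.0634, for Tyrobp, whose interaction was -0.31 with a 95% interval of -0.65 to 0.03 (edgeR, adjusted p = 0.859). Tyrobp averaged 31.0 ± 6.23 CPM in restricted and 50.4 ± 6.50 CPM in control libraries marked Yes (SD, n = 3 and 7). In libraries marked No it averaged 37.4 ± 3.24 CPM in restricted and 48.9 ± 1.603 CPM in control libraries (SD, n = 7 and 3). Fcer1g had the largest positive interaction, 0.22 with an interval of -0.07 to 0.52. It averaged 22.9 ± 2.46 CPM in restricted and 29.0 ± 2.26 CPM in control libraries marked Yes (SD, n = 3 and 7), and 23.2 ± 2.94 CPM in restricted and 34.3 ± 0.768 CPM in control libraries marked No (SD, n = 7 and 3).

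General macrophage genes moved with the members. Of 8 core macrophage genes, 6 fell by diet in the same edgeR fit, among them Csf1r, the receptor of the macrophage growth factor CSF1 (log2 fold change -0.59), Adgre1, the F4/80 antigen (-0.58), Cd68, a lysosomal glycoprotein (-0.49), Mertk, a receptor for dying cells (-0.25), and Mpeg1, which encodes the pore-forming perforin-2 (-0.67). Spi1 (-0.35, adjusted p = 0.106) and Itgam (-0.37, adjusted p = 0.0858) did not pass. The list summed to 336 to 466.2 CPM in restricted and 453 to 593 CPM in control libraries. When the mean log2 CPM of these 8 genes was added to the offset of each library, the fit gave the difference relative to them. None of the 9 members was then called, with log2 fold changes from -0.16 for Fcgr4 to 0.16 for C1qa and a median of 0.01. In that fit 74.3% of all tested genes were called in either direction, 73.6% as higher and 0.663% as lower, since the median tested gene stood at 0.48. C1qa was at 0.16 with a 95% interval of -0.02 to 0.33 (adjusted p = 0.0916, edgeR), C1qb at 0.09 (-0.08 to 0.25), Fcgr3 at 0.11 (-0.05 to 0.28), Fcgr2b at -0.11 (-0.27 to 0.05) and Tyrobp at -0.07 (-0.25 to 0.11). The intervals treat the mean of the 8 genes as known without error, and a p that misses the threshold does not show that members and core genes moved alike. With Spi1 left out of the core list, C1qa was called higher relative to it (log2 fold change 0.17, adjusted p = 0.0482, edgeR).

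**Figure D2:**
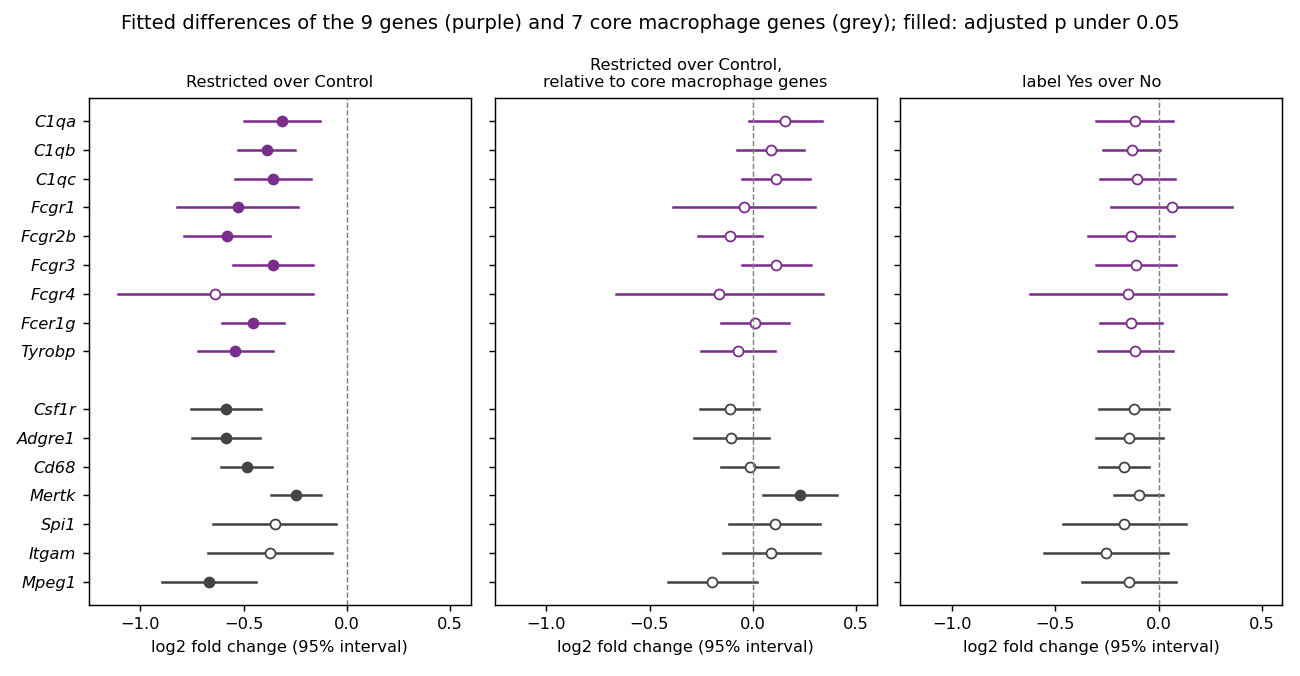
Fitted log2 fold changes with 95% intervals for the 9 genes (purple) and 7 of the 8 core macrophage genes (grey), for restricted over control (left), the same relative to the core macrophage genes (middle) and Yes over No (right). Filled points passed an adjusted p of 0.05. In the left panel 8 of the 9 genes are filled and lie below 0, and in the other panels none of the 9 is.

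The plot of fitted differences shows the members inside the range of the core macrophage genes, from Mertk at -0.25 to Mpeg1 at -0.67 on the log2 scale. Some markers of other immune cells also moved by diet. Of 5 tested mast cell markers 4 fell, and the list summed to 27.1 to 37.9 CPM in restricted and 45.7 to 77.2 CPM in control libraries. The mast cell marker Kit, named after its value was seen, was not called (0.08, adjusted p = 0.736, edgeR). Kit was at 11.3 to 19.9 CPM in restricted and 8.83 to 18.5 CPM in control libraries. Of 5 tested neutrophil markers 3 fell, with sums of 8.96 to 19.4 CPM in restricted and 20.4 to 35.4 CPM in control libraries. The others, named after their values were seen, were above 0 and not called: S100a8 (0.32, adjusted p = 0.413, edgeR) and S100a9 (0.11, adjusted p = 0.836, edgeR). Much of the sum was Mmp9, at 3.43 to 13.7 CPM in restricted and 12.7 to 26.7 CPM in control libraries. Among 7 dendritic cell markers 3 fell, with sums of 26.7 to 39.1 CPM in restricted and 37.0 to 47.5 CPM in control libraries. Of 6 monocyte markers 2 fell and 5 had log2 fold changes below 0. The monocyte sums were 52.3 to 83.5 CPM in restricted and 74.6 to 109.8 CPM in control libraries. None of 4 natural killer cell markers passed, with sums of 3.49 to 6.76 CPM in restricted and 4.04 to 10.5 CPM in control libraries. None of 6 B cell markers passed either, though all 6 log2 fold changes were below 0. The B cell sums were 6.54 to 33.9 CPM in restricted and 9.22 to 22.2 CPM in control libraries. No marker of these lists was at 0 in all libraries, and the part of these cells in the members' differences was not tested.

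Ratios between members do not depend on the scaling of a library, and 7 were compared. The inhibitory to activating ratio Fcgr2b to Fcgr3 was lower in restricted libraries, at 0.900, 1.04 and 1.23 (lowest, median and highest), than in control libraries, at 1.04, 1.21 and 1.35. The groups overlapped. The mean was 1.04 ± 0.109 in restricted and 1.21 ± 0.092 in control libraries (SD, n = 10 each), a difference of -0.22 on the log2 scale in a two-sided exact permutation test within the label (p = 0.00472, adjusted over the 7 ratios 0.0331). It was -0.25 within libraries marked Yes and -0.19 within those marked No. The call was lost without any of Restricted 1, Restricted 3, Restricted 9, Control 3, Control 6 or Control 7 (adjusted p up to 0.0859), and without the 6 libraries with raised muscle transcripts (adjusted p = 0.156, exact permutation). Fcgr2b and Fcgr3 are close paralogs: 160 of the 52-base windows of the annotated Fcgr3 transcripts (9.23%) occur in Fcgr2b as well, at the read length of the libraries. Of the Fcgr2b windows 391 (6.87%) occur in transcripts of other genes, those 160 in Fcgr3 among them. How the authors' counting treated such reads is not given in the sources used here, so the ratio is uncertain to that extent. The other 6 ratios did not pass. C1qa to C1qb was 0.994 ± 0.0561 in restricted and 0.949 ± 0.0655 in control libraries (SD, n = 10 each, exact permutation p = 0.118, adjusted 0.412). C1qc to C1qb was 0.867 ± 0.0556 in restricted and 0.856 ± 0.0714 in control libraries (exact permutation p = 0.588). Tyrobp to Fcer1g was 1.55 ± 0.247 in restricted and 1.65 ± 0.284 in control libraries (exact permutation p = 0.45), with a log2 difference of -0.37 within libraries marked Yes and 0.18 within those marked No. Fcgr1, Fcgr4 and Fcer1g relative to Fcgr3 differed by -0.18, -0.28 and -0.10 on the log2 scale (adjusted p of 0.473 to 0.525, exact permutation).

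**Figure D3:**
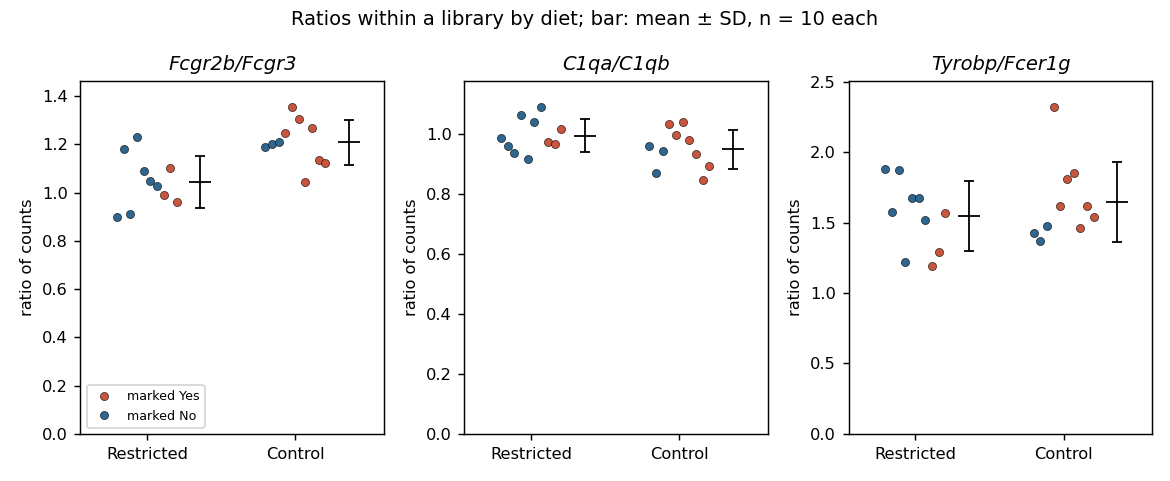
Ratios of the counts of a pair of genes within each library, restricted left of control, coloured by the contamination label, with the mean and SD over 10 libraries; the vertical axes start at 0. Fcgr2b to Fcgr3 averages 1.04 in restricted and 1.21 in control libraries. The groups overlap in all 3 ratios.

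In the plot of ratios, C1qa to C1qb stayed between 0.846 and 1.09 over all 20 libraries, the narrowest range of the 3 shown. How the members varied together was described by the correlation of their residual log2 CPM over the 20 libraries after diet and label. The libraries share scaling factors, and the values are given with no test. The C1q chains varied together, with r = 0.944 for C1qa and C1qc, 0.888 for C1qa and C1qb and 0.814 for C1qb and C1qc. C1qb had r = 0.805 with Fcgr3. Fcgr2b and Fcgr3 had r = 0.784, and Tyrobp had 0.625 to 0.70 with the C1q chains and 0.698 with Fcgr2b. Fcer1g stood apart, with r between -0.10 and 0.07 with the C1q chains, -0.08 with Fcgr3 and -0.01 with Tyrobp. Fcgr1 and Fcgr4, the members of lowest counts, correlated with C1q chains at 0.07 to 0.23. Over the 36 pairs the median was 0.25, from -0.492 (Fcgr1 and Fcer1g) to 0.944. With the mean of the core macrophage genes, r was 0.829 for Fcgr2b, 0.719 for C1qc, 0.672 for Fcgr3, 0.625 for C1qa, 0.579 for C1qb, 0.539 for Tyrobp and 0.503 for Fcer1g, and 0.04 for Fcgr4 and -0.15 for Fcgr1.

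**Figure D4:**
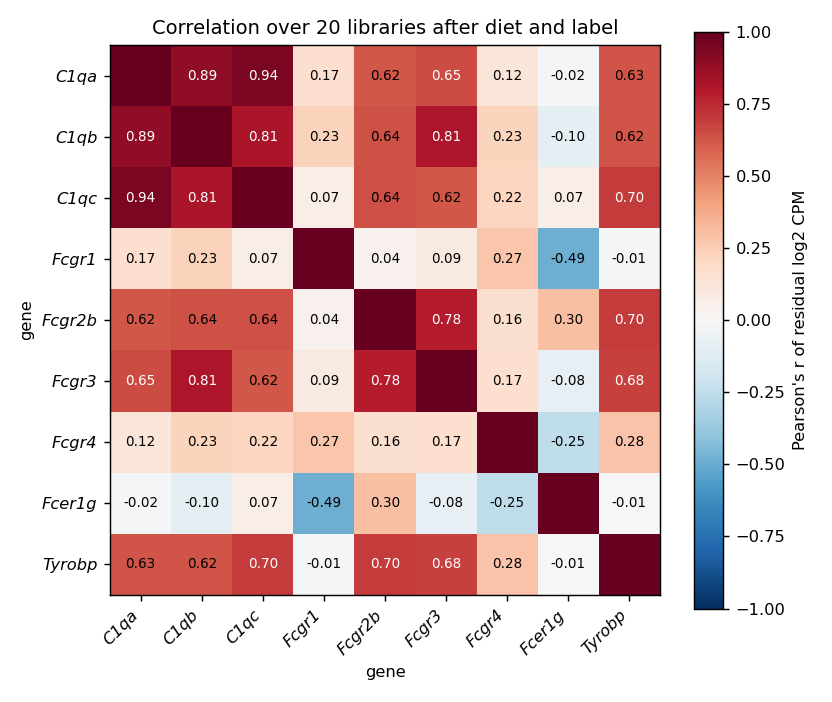
Pearson's r between the residual log2 CPM of each pair of the 9 genes over 20 libraries, after diet and contamination label, from -1 (blue) to 1 (red). The 3 C1q chains form a block of 0.81 to 0.94, and the row of Fcer1g stays between -0.49 and 0.30.

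The map of correlations was extended to other genes by naming the 5 most like each group of members among 14259 genes of at least 1 CPM. Most like the C1q chains were Pf4, which encodes platelet factor 4 (r = 0.869), Shtn1 (0.828), Csf1r (0.825), Timp2, which encodes an inhibitor of metalloproteases (0.825), and F13a1, which encodes the A chain of coagulation factor XIII (0.816). All 5 fell by diet in the edgeR fit, Pf4 to 38.1 ± 4.46 CPM in restricted libraries against 50.6 ± 5.34 CPM in control libraries. Most like the Fc gamma receptors were Clec10a, which encodes the lectin CD301 (0.788), Dbr1 (0.765), Naip6 (0.765), Dcn, which encodes decorin (0.757), and Ms4a6b (0.74). Of these, Clec10a (log2 fold change -0.63), Naip6 (-0.51) and Dcn (-0.60) fell by diet, while Dbr1 (0.09, adjusted p = 0.349) and Ms4a6b (-0.25, adjusted p = 0.229) did not pass. Most like the adaptors were Fgfr1 (0.892), Dact3 (0.891), Zfr2 (0.856), H2-DMb1 (0.854) and Armcx2 (0.845), of which Fgfr1 (-0.21) and H2-DMb1 (-0.36), a chaperone chain of class II loading, fell. Each group was read as the mean of its members. Fcer1g and Tyrobp were uncorrelated (r = -0.01), and Fcgr1 and Fcgr4 had r of only 0.04 to 0.17 with Fcgr2b and Fcgr3. A gene like the mean of these 2 groups need not be like each member. The names depend on the measure: 6 of the 15 were named again from log2 CPM in place of residuals and 7 from Spearman's correlation.

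Genes that act with the members were counted in 6 lists, chosen with earlier results of these data known, in the same edgeR fit. In these lists 30 of 79 tested genes fell and none rose, beside 7.29% of all tested genes called lower. Of 10 tested genes of C1r, C1s and the classical pathway, 2 fell: Serping1, the inhibitor of C1, averaged 289 ± 45.6 CPM in restricted libraries against 396 ± 44.2 CPM in control libraries (log2 fold change -0.49, adjusted p = 0.00124), and C3, the central complement component, differed by -0.51 (adjusted p = 0.0435). C1ra, a protease that C1q carries, was at -0.33 (adjusted p = 0.0841), and Masp2, a protease of the lectin pathway, at 0.62 (adjusted p = 0.171). The median of the list was -0.29. Of 9 tested receptors that bind C1q, 2 fell, Itgb2, the beta chain of complement receptor 3 (-0.64, adjusted p = 5.55e-05), and Megf10, a phagocytic receptor (-1.34, adjusted p = 0.00256). Lrp1 (-0.18, adjusted p = 0.0647) and Itgam (-0.37, adjusted p = 0.0858) did not pass, and the median was -0.16.

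Of 8 other Fc receptors tested, Fcrls fell, to 35.4 ± 6.88 CPM in restricted libraries against 55.8 ± 6.9 CPM in control libraries (log2 fold change -0.74, adjusted p = 9.04e-05). Fcrla (-0.56, adjusted p = 0.0628), Fcamr (-0.41, adjusted p = 0.166) and Fcmr (-0.67, adjusted p = 0.209) did not pass, and the median of the list was -0.32. Of 11 tested receptors that signal through Tyrobp or Fcer1g, 7 fell, with a median of -0.73. The 4 of smallest p were Cd300lb, a myeloid receptor paired with Tyrobp (-0.73, adjusted p = 4.94e-05), Klrk1, the NKG2D receptor of lymphocytes (-0.73, adjusted p = 0.00243), Cd300ld (-0.39, adjusted p = 0.00355) and Siglech, a lectin of plasmacytoid dendritic cells (-0.91, adjusted p = 0.00993). Trem2, the lipid-sensing receptor of macrophages, was named after its value was seen, at 8.77 ± 1.77 CPM in restricted libraries against 11.6 ± 2.62 CPM in control libraries (-0.45, adjusted p = 0.0376). Relative to the core macrophage genes, 5 of the 79 tested list genes were called lower, beside 0.663% of all tested genes, and 18 higher, beside 73.6%. The 5 were Cd300lb (-0.25, adjusted p = 0.0144), Fcrls (-0.27, adjusted p = 0.00399), Itgb2 (-0.17, adjusted p = 0.0388), Megf10 (-0.85, adjusted p = 0.0151) and Igha (-0.88, adjusted p = 0.0429).

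Below the ITAM and ITIM, 17 of 30 tested signalling genes fell and the list had a median of -0.41. Those of smallest p were Pik3r5, a regulatory subunit of PI3-kinase gamma (log2 fold change -0.60, adjusted p = 0.000208), Lcp2, the adaptor SLP-76 (-0.58, adjusted p = 0.000334), Rac2, a small GTPase of blood cells (-0.55, adjusted p = 0.000664), and Inpp5d, the phosphatase SHIP1 that the ITIM of Fcgr2b recruits (-0.41, adjusted p = 0.00156). Syk, the kinase that binds the ITAM, was named after its value was seen, at 36.8 ± 7.62 CPM in restricted libraries against 50.7 ± 6.83 CPM in control libraries (-0.54, adjusted p = 0.00161). Of the 11 tested genes of immunoglobulins, 10 constant genes and the joining chain gene Jchain, Igha, which encodes the heavy chain of IgA and not a ligand of the Fc gamma receptors, fell to 2.09 ± 1.23 CPM in restricted libraries against 5.02 ± 3.96 CPM in control libraries (-1.31, adjusted p = 0.0431). Iglc1 (-1.20, adjusted p = 0.0965), Ighm (-0.46, adjusted p = 0.11) and Iglc2 (-0.63, adjusted p = 0.27) did not pass, and the median of the list was -0.59. The tested IgG genes, whose products the Fc gamma receptors bind, are named after their values were seen: Ighg2b was at -1.53 (adjusted p = 0.518), Ighg2c at 0.22 (adjusted p = 0.924) and Ighg3 at -0.42 (adjusted p = 0.824). Ighe was at 0 in all libraries. Against 30 list genes called over all libraries, Yes libraries on their own gave 6 (0.996% of all genes tested there were lower) and No libraries 4 (1.63%), the 14 libraries other than those raised in muscle transcripts gave 15 (3.19%), and adding the integrity number as a term left 6 (1.17%).

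**Figure D5:**
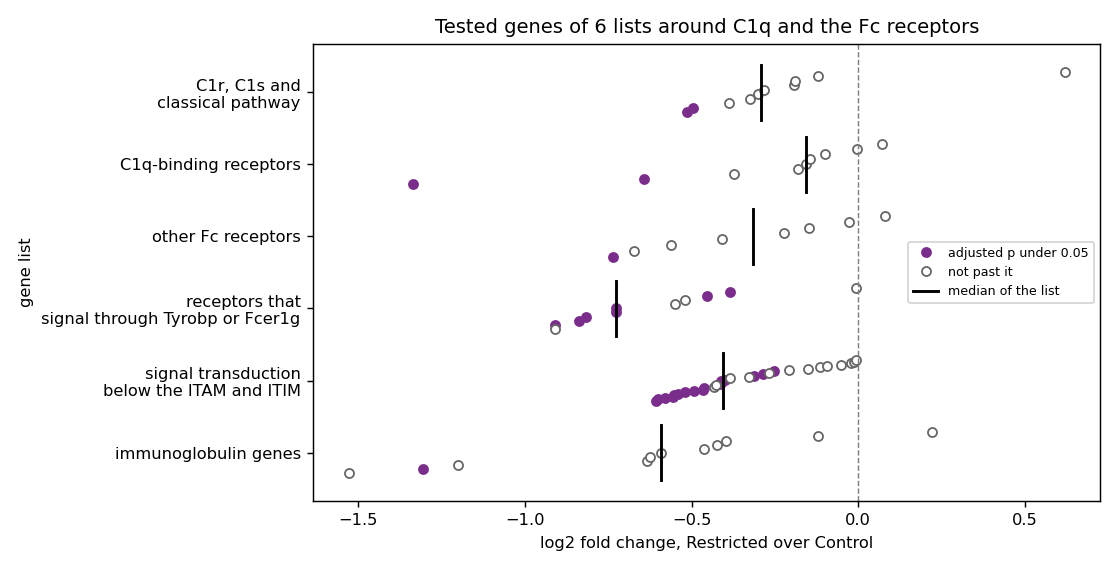
Fitted log2 fold change, restricted over control, of every tested gene of the 6 lists; filled points passed an adjusted p of 0.05 in the edgeR fit over all genes and black lines mark the median of each list. All filled points lie below 0, and the receptors that signal through Tyrobp or Fcer1g have the lowest median, -0.73.

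The plot of the lists shows the medians of all 6 below 0, from -0.73 for the receptors that signal through Tyrobp or Fcer1g to -0.16 for the receptors that bind C1q.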

How the data were processed

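PolyA RNA-seq of 20 libraries was read as 52-bp paired ends, per the labels' protocols. The tissue label, eWAT, was followed, although the protocol for RNA extraction speaks of QUAD. Named in the submitters' processing notes, without saying what each did, are GRCm38, Salmon, STAR and bcl2fastq 4.0.3. The authors deposited 1 table of raw whole-number counts per gene, with gene lengths. Its counting tool and strand setting: not given in the sources used here. Symbols were found for 55141 of the 55401 identifiers, for 54349 by exact identifier in GENCODE vM21. The rows that overlap a member held at most 0.187% of its counts.

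The count test was edgeR 4.0.16 (R 4.3.3): scaling by TMM, filterByExpr by diet with a minimum count of 10 (15986 genes left, at least 99.629% of the counts of a library), a quasi-likelihood fit with label and diet, two-sided tests and Benjamini-Hochberg adjustment over all tested genes at 0.05. CPM divides counts by the total of the tested genes times the TMM factor. The interaction and the fit relative to 8 core macrophage genes used the same steps. Ratios used a prior count of 0.5 and 14400 arrangements, so the smallest p they can give is 6.94e-05. The biological coefficient of variation was 0.179, against which counting error is small except for Fcgr4 and Fcgr1. No library pair of a diet agreed within sampling noise (the smallest chi-square was 9.93 per degree of freedom). The members, lists and tests were chosen with earlier results of these data known. Named were the members, 7 of the 8 core macrophage genes, up to 4 genes of each list with the smallest p and 5 genes most like each of 3 groups of members; further genes are said to be named after their values were seen. Markers of other cells are given as counts of calls and summed CPM, with a few named after their values were seen. Alternatives were RLE and upper-quartile factors, DESeq2 1.42.0, voom of limma 3.58.1, other filters (1 added after the data were seen), subsets of libraries, further terms, the replicate number as a block, and removal of each library in turn. A core macrophage gene, counted in its list, is not reported here by name. Ratios and correlations were computed in Python 3.11.15 (pandas 2.3.3, numpy 2.4.6), and figures drawn with matplotlib 3.10.9.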

Additional observations from a re-analysis of the deposited data

Results flagged for a closer look

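Some libraries lay apart from the others of their group by Dixon's criterion, which was applied 64 times and marks about 1 group in 20 by chance. Restricted 4 had the highest Fcgr1 of the restricted libraries, 5.16 CPM, with the next at 3.88 CPM. Control 1 had the highest Tyrobp of all control libraries and of those marked Yes, 63.7 CPM, with the next at 52.7 CPM. Control 1 also had the highest Fcgr2b of the control libraries marked Yes, 61.1 CPM, with the next at 46.5 CPM, and the highest ratio of Tyrobp to Fcer1g, 2.32, with the next at 1.85. Control 2 had the highest ratio of Fcgr4 to Fcgr3, 0.067, with the next control library at 0.0391 and the next marked Yes at 0.0356. Restricted 6 had the highest ratio of Fcer1g to Fcgr3 among restricted libraries marked No, 1.06, with the next at 0.778. Control 1 and Control 2 are among the 6 libraries with raised muscle transcripts.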

How the results depend on the processing

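The 9 diet fold changes were negative under each of the 15 alternatives and without each library. The count of called members, 8, was 2 to 9 under the alternatives: 4 without the 6 libraries with muscle transcripts, 2 with the RNA integrity number as a term, 2 in libraries marked No alone and 3 in libraries marked Yes alone, with 6 to 9 under the other 11. The list genes called, 30, became 15, 6, 4 and 6 under the same 4 settings and 25 to 32 under the rest. Leaving out each library gave 7 to 9 called members and 26 to 33 list genes. Of all tested genes, 2173 were called by diet, but 927 without the muscle libraries, 392 with the integrity term (1445 in the same 17 libraries without it), 400 in No alone, 239 in Yes alone, 1388 with the replicate block and 1454 with no filter. By label, 0 of the 9 were called under each alternative run. The interaction of all genes gave 1 call with DESeq2 and 5 without the muscle libraries, none of them a member. Relative to the core macrophage genes, 0 members were called, except 1 (C1qa) with the list without Spi1. The 1 ratio past 0.05, Fcgr2b to Fcgr3, became 0 without the muscle libraries, 0 with the replicate block and 0 to 1 without each library; its log2 difference stayed between -0.25 and -0.20. Of the 15 most like genes, 6 were named from log2 CPM and 7 by Spearman's correlation. The cause of these changes was not tested; the subsets hold fewer libraries.

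Equal replicate numbers did not pair the libraries: the correlation of same-numbered residuals ran from -0.09 to 0.13, over 0.1 in 2 of 10 pairs, and 1 control library of 10 correlated best with its own number. With the replicate block all 9 members were called, Fcgr4 among them, and 28 list genes. Depth limits Fcgr4, at 10 to 53 counts per library, and Fcgr1, at 59 to 213.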
